A study of Mus musculus with 13 samples.

Results

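Expression of 9 genes known to respond to TGF-β was followed in the presumptive intervertebral disc (IVD) and vertebrae of Tgfbr2 mutant and control mouse embryos. They were Tgfbi, Adamtsl2, Htra1, Fst, Il1rap, Ldlrad4, Skil, Tgif1 and Pmepa1. For Tgif1 the study itself reported no effect of TGF-β, in its cell cultures or in vivo. Every probe set whose annotation named exactly 1 of these genes was taken, which gave 24 of the 45037 probe sets fitted and 9 of the 18193 genes with a symbol. RNA came from lumbar tissue collected by laser capture microdissection at E13.5 and was hybridized to 13 Affymetrix mouse genome arrays. The groups were mutant IVD (4 arrays, Cre+;Tgfbr2lox/lox), mutant vertebrae (3 arrays, the same genotype, spelled Cre+;Tgrbr2lox.lox in the labels), control IVD (3 arrays) and control vertebrae (3 arrays), both Cre-;Tgfbr2lox/wt. In mutants Cre was driven by the Col2a promoter, so deletion was aimed at cells that use this promoter and not at the whole embryo. Controls had no Cre but did carry a floxed Tgfbr2 allele. Control IVD and control vertebrae were from the same mice, while the labels do not say whether mutant IVD and mutant vertebrae shared embryos.

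TGF-β binds the type II receptor Tgfbr2, which recruits and phosphorylates the type I receptor Tgfbr1, and the active complex phosphorylates Smad2 and Smad3. These enter the nucleus with Smad4 and bind short DNA elements, the best known being CAGAC and its complement GTCTG. Targets include secreted matrix proteins, and also inhibitors that act back on the pathway at the membrane or in the nucleus. In the axial skeleton, TGF-β is known for its part in forming the annulus fibrosus, the fibrous outer layer of the disc.

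Promoter windows of Tgfbi and Adamtsl2 are printed because these genes had large and similar differences between IVD and vertebrae in both genotypes. Each window runs from 250 bases before to 50 bases after a RefSeq transcript start, on GRCm38.p6, with CAGAC or GTCTG in capitals. The Tgfbi window is chr13:56609336-56609635 on the plus strand, and the Adamtsl2 window is chr2:27079129-27079428 on the plus strand.
Tgfbi: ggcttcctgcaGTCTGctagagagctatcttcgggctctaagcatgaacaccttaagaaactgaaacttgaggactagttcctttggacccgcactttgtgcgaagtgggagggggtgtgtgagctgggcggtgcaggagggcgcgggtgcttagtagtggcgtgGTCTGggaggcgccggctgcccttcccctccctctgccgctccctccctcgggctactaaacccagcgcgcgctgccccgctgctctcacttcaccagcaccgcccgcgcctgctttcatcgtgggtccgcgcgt
Adamtsl2: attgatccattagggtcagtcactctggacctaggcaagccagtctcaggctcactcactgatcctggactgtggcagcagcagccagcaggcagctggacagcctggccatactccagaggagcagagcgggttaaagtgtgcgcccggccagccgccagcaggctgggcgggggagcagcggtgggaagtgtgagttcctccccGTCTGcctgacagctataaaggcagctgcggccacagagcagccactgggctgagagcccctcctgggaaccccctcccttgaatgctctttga

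Windows of 5 of the 9 genes were read. Windows on chromosome 18, where Ldlrad4 lies, were left out. Tgfbi had 2 matches to CAGAC on either strand, Adamtsl2 and Il1rap had 1 each, and Htra1 had 0. Tgif1, with several annotated starts, had 0 to 2 per window. Of 32851 windows of this length in the table, 49.6% held at least 1 match and 16.2% held 2 or more, so a match here was common. GGCGC, a GC-rich element also bound by Smads (36.9% of windows on either strand), had 4 matches in Tgfbi and 1 each in Adamtsl2 and Htra1. It had 0 in Il1rap and 0 to 2 per window in Tgif1, and 14.3% of all windows held 3 or more. GGCCG, another GC-rich sequence (35.2% of windows), ran in a different order, with 4 matches in Htra1, 2 in Adamtsl2, 1 in Il1rap and 0 in Tgfbi. TGTCA, the motif of Tgif1 itself (45.4% of windows on either strand), had 1 match in Adamtsl2 and 0 in Tgfbi.

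All values below are log2 values relative to the median of the 13 arrays, because the deposited values were centred on 0 for every probe set. They place arrays against each other and say nothing of how strongly a gene was expressed, and with 3 or 4 arrays per group precision was low. Transcripts of other tissues were unevenly spread. Liver genes (8 measured) averaged 3.0 and 3.98 on the arrays mutant IVD 3 and 4, 5.86 on control IVD 1 and 6.05 on control vertebrae 1, and lay between -0.36 and 0.21 in the other arrays. Neuronal genes (12 measured) averaged 3.26 on the mutant IVD 3 array and 2.57 on the control vertebrae 3 array, against -1.02 to 0.65 elsewhere. Mutant vertebrae 1 had the widest spread over all probe sets (SD 0.74), against 0.33 to 0.52 in the other arrays. Fibrous matrix genes (18 measured, among them Col1a1, Fmod and Dcn) had means of 1.18, 0.74, -1.13 and 0.46 in mutant IVD, and 0.75, 1.38 and 0.42 in control IVD. They had means of -1.47, -0.77 and 0.18 in mutant vertebrae, and -0.43, -0.14 and -0.57 in control vertebrae. Mutant IVD 3 was thus the IVD array lowest in fibrous genes and highest in neuronal genes. The mutant excess and its change are also given without it. Over the 13 arrays, with the difference between tissues left in, Tgfbi and Pmepa1 followed the fibrous mean (r = 0.91 and 0.87). A higher mutant excess without this array therefore follows in part from that choice and is not independent support. Why its fibrous mean was low was not tested. Without the 4 arrays rich in liver transcripts, the median excess of the 9 genes in IVD over vertebrae was 0.88 in mutants and 0.85 in controls. Those 4 include mutant IVD 3, so this fit is not separate from leaving it out. Every group except mutant vertebrae also had fewer arrays in it. With the neuronal mean as a covariate it was 0.90 in mutants and 0.59 in controls, and with the liver mean 0.86 in mutants and 0.86 in controls. In tissue of mixed cells, fewer cells of a type and less RNA per cell cannot be told apart.

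Tgfbr2 was represented by 3 probe sets, and whether their target lies in the deleted part is not given in the sources used here, so they do not check the deletion. One of them, 1426397_at, read 1.31, 0.48, 0.00 and 0.30 in mutant IVD and -2.10, -0.68 and -0.17 in mutant vertebrae. It read 0.78, 0.99 and -0.52 in control IVD and 0.00, -0.02 and -0.42 in control vertebrae. The other 2 probe sets stayed between -0.11 and 0.50 on every array.

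The question was whether the excess of these genes in IVD over vertebrae falls when Tgfbr2 is deleted. Taken as the mean of its probe sets, each of the 9 genes averaged higher in IVD than in vertebrae, in mutants and in controls. The median difference was 0.86 in mutants (range 0.16 to 1.99) and 0.83 in controls (range 0.28 to 1.95). Over all genes tested the median difference was 0.00 in mutants and -0.01 in controls. Tgfbi, Adamtsl2, Il1rap, Ldlrad4 and Pmepa1 are in the study's own list of disc enriched genes made from these arrays, so their excess in controls is not independent evidence.

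**Figure D1:**
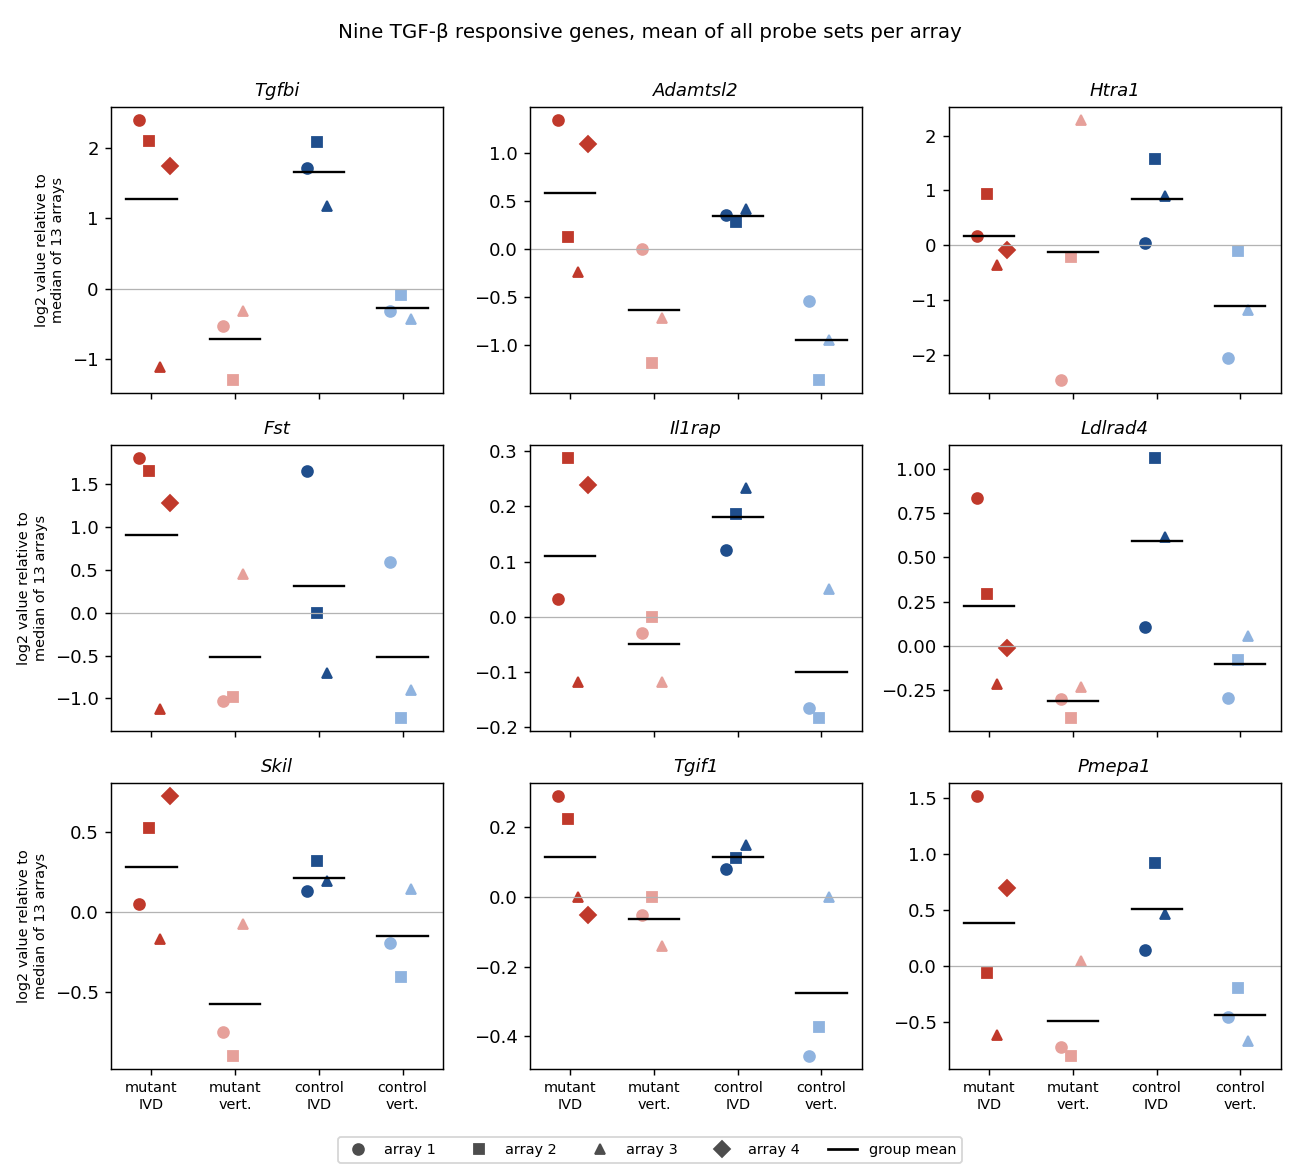
Each panel plots a gene, as the mean log2 value of its probe sets relative to the median of the 13 arrays, in mutant IVD, mutant vertebrae, control IVD and control vertebrae. Symbols are single arrays and bars are group means. In mutant IVD the triangle (array 3) lies at -1.11 for Tgfbi and -1.12 for Fst, while the other 3 arrays lie between 1.28 and 2.40 for both genes.

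Tgfbi encodes a secreted matrix protein induced by TGF-β. Its mean over 4 probe sets was 2.40, 2.10, -1.11 and 1.75 in mutant IVD, and -0.53, -1.29 and -0.32 in mutant vertebrae. It was 1.72, 2.09 and 1.17 in control IVD, and -0.31, -0.09 and -0.43 in control vertebrae. Of the 4 mutant IVD arrays, 3 were as high as the control IVD arrays, and the other was as low as vertebrae. The excess in IVD was 1.99 ± 0.66 (SE) in mutants and 1.93 ± 0.71 in controls (limma, adjusted p = 0.389 and 1, and 0.0102 in controls when the 6 control arrays were fitted alone, with those of the same number taken as 1 mouse, a random block). Without mutant IVD 3 the mutant excess was 2.79 (adjusted p = 0.00393), and all 4 probe sets of Tgfbi passed, with differences of 2.18 to 3.5. In that fit 0.393% of all probe sets passed. With mutant IVD 1 left out instead, the mutant excess was 1.62 (limma, adjusted p = 0.667). Probe set 1415871_at read 3.06, 2.50, -1.45 and 1.66 in mutant IVD, and 2.41, 2.40 and 2.10 in control IVD.

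Adamtsl2 encodes a secreted glycoprotein of the ADAMTS-like family, which binds fibrillin and a latent TGF-β binding protein and has no protease domain. Its single probe set read 1.34, 0.13, -0.24 and 1.09 in mutant IVD, and 0.00, -1.18 and -0.72 in mutant vertebrae. It read 0.35, 0.28 and 0.41 in control IVD, and -0.54, -1.36 and -0.94 in control vertebrae. Control IVD arrays lay close together and above all vertebrae, whereas mutant IVD was spread on both sides of them. The excess was 1.21 ± 0.38 in mutants and 1.29 ± 0.41 in controls (adjusted p = 0.339 and 1, and 0.0342 in controls with that block).

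Htra1, a secreted serine protease, departed from the other genes. Its mean over 2 probe sets was 0.16, 0.94, -0.36 and -0.08 in mutant IVD, and -2.45, -0.22 and 2.28 in mutant vertebrae. It was 0.04, 1.58 and 0.90 in control IVD, and -2.05, -0.10 and -1.17 in control vertebrae. The mutant vertebrae held both the lowest and the highest of the 13 values, and mutant IVD lay inside their range. The excess was 0.29 ± 0.86 in mutants and 1.95 ± 0.92 in controls (adjusted p = 0.942 and 1). Without mutant vertebrae 3 the mutant excess was 1.5, and without mutant vertebrae 1 it was -0.87, so its direction rested on single arrays.

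Fst, which encodes follistatin, an inhibitor that binds activins outside the cell, varied most among control IVD. Its mean over 2 probe sets was 1.81, 1.65, -1.12 and 1.28 in mutant IVD, and -1.03, -0.98 and 0.45 in mutant vertebrae. It was 1.66, 0.00 and -0.71 in control IVD, and 0.59, -1.23 and -0.90 in control vertebrae. Groups overlapped in both genotypes, and 3 of 4 mutant IVD arrays lay above every vertebrae array. The excess was 1.43 ± 0.76 in mutants and 0.83 ± 0.82 in controls (adjusted p = 0.689 and 1).

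Il1rap, the coreceptor of the interleukin 1 receptor, gave different readings by probe set. Probe set 1421844_at read 0.84, 1.62, -0.98 and 0.44 in mutant IVD, and -1.0, 0.00 and -0.57 in mutant vertebrae. It read 0.91, 0.75 and 0.54 in control IVD, and -0.39, -0.56 and -0.87 in control vertebrae. Again mutant IVD 3 fell among the vertebrae and the other 3 arrays lay above them. The excess of this probe set was 1.0 ± 0.47 in mutants and 1.34 ± 0.50 in controls (adjusted p = 0.629 and 1). The other 4 probe sets stayed between -0.48 and 0.51 on all arrays, and their differences lay between -0.16 and 0.09, so the mean over all 5 had an excess of only 0.16 in mutants and 0.28 in controls.

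Pmepa1 and Ldlrad4 encode related membrane proteins that bind Smad2 and Smad3 and dampen the TGF-β signal. Pmepa1, as the mean of 3 probe sets, was 1.52, -0.06, -0.61 and 0.70 in mutant IVD, and -0.72, -0.80 and 0.05 in mutant vertebrae. It was 0.15, 0.92 and 0.46 in control IVD, and -0.46, -0.19 and -0.66 in control vertebrae. Control groups did not overlap, and mutant groups did. The excess was 0.87 ± 0.42 in mutants and 0.95 ± 0.45 in controls (adjusted p = 0.639 and 1).

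Ldlrad4 had 1 probe set, 1427182_s_at, that differed from the others by genotype. It read 1.65, 0.02, -0.17 and -0.02 in mutant IVD, and -0.97, -0.48 and -0.26 in mutant vertebrae. It read 0.49, 2.43 and 1.67 in control IVD, and -0.23, 0.07 and 0.00 in control vertebrae. Mutant IVD 2, 3 and 4 were near the control vertebrae, and mutant IVD 1 was as high as control IVD. Among the 24 probe sets, only this one had an unadjusted p under 0.05 between mutant IVD and control IVD. It was lower in mutants by 1.16 ± 0.48 on the log2 scale, with an adjusted p of 1 (limma), and the study's list of genes changed in mutant IVD, from the same arrays, also holds it. The difference was -0.71 without control IVD 2 (unadjusted p = 0.174), -0.98 without mutant IVD 3 (unadjusted p = 0.0816) and -1.58 without mutant IVD 1 (unadjusted p = 0.00193, adjusted p = 0.838), so its size rested on single arrays. As the mean of 4 probe sets, the excess of Ldlrad4 was 0.54 ± 0.26 in mutants and 0.70 ± 0.27 in controls (adjusted p = 0.638 and 1).

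Skil and Tgif1 encode nuclear corepressors that bind Smads. For Skil, probe set 1452214_at read 0.26, 0.84, -0.08 and 1.20 in mutant IVD, and -1.96, -1.67 and -0.15 in mutant vertebrae. It read 0.29, 0.59 and 0.03 in control IVD, and -0.31, -0.50 and 0.00 in control vertebrae. All 4 mutant IVD arrays lay above all 3 mutant vertebrae arrays, by the least margin between mutant IVD 3 and mutant vertebrae 3, and 2 mutant vertebrae arrays were the lowest of the 13. The excess was 1.81 ± 0.41 in mutants, the smallest p of any of the 24 probe sets in that comparison (adjusted p = 0.230), and 0.58 ± 0.44 in controls (adjusted p = 1). The other probe set, 1422054_a_at, had an excess of -0.09 in mutants and 0.16 in controls.

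Tgif1 varied little. It read 0.29, 0.22, 0.00 and -0.05 in mutant IVD, and -0.05, 0.00 and -0.14 in mutant vertebrae. It read 0.08, 0.11 and 0.15 in control IVD, and -0.46, -0.37 and 0.00 in control vertebrae. Every control IVD array was above every control vertebrae array, and mutant groups overlapped. The excess was 0.18 ± 0.14 in mutants and 0.39 ± 0.15 in controls (adjusted p = 0.804 and 1).

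**Figure D2:**
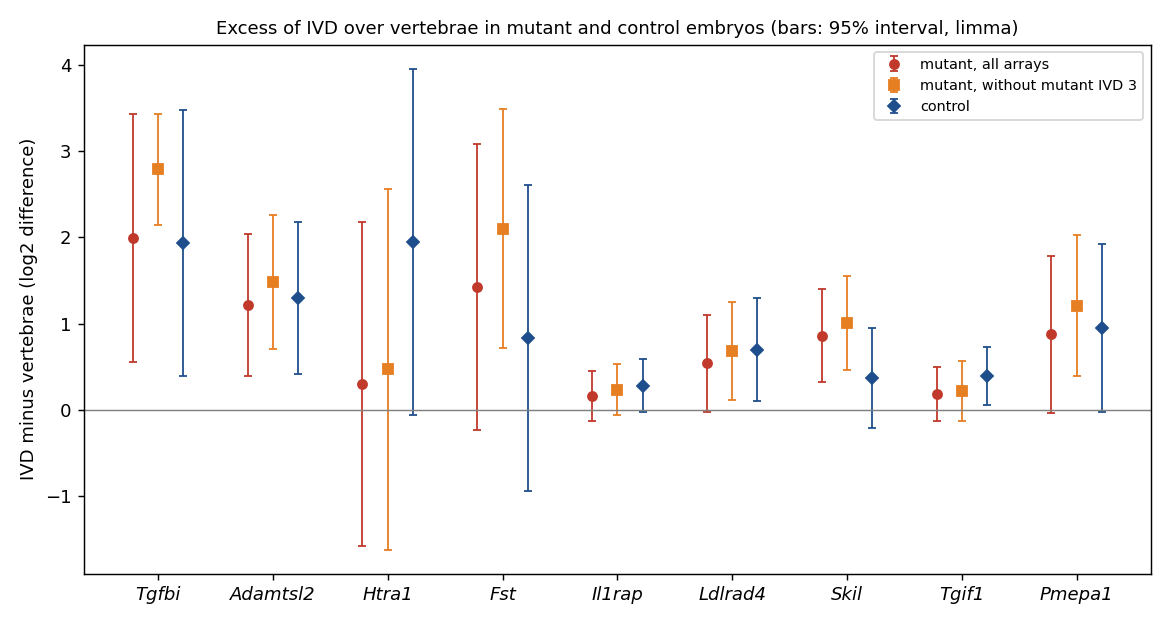
Difference between IVD and vertebrae for each gene (log2, mean of probe sets) in mutants with all arrays (circles), in mutants without mutant IVD 3 (squares) and in controls (diamonds), with 95% intervals from limma. The mutant and control intervals overlap for all 9 genes, and leaving out mutant IVD 3 moves Tgfbi to 2.79 and Fst to 2.10.

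In mutants, limma called 0 of the 24 probe sets between IVD and vertebrae at an adjusted p under 0.05, where 0.0155% of all probe sets were called. At an unadjusted p under 0.05, 6 of the 24 were higher in IVD and 0 lower, where 8.07% of all probe sets passed in either direction and 4.35% were higher. These were the 4 probe sets of Tgfbi, that of Adamtsl2 and 1452214_at of Skil. Without mutant IVD 3, 12 of the 24 were higher and 0 lower at that threshold, where 8.3% of all passed and 4.82% were higher, the added ones being both of Fst, 2 of Pmepa1, 1421844_at of Il1rap and 1452343_at of Ldlrad4. As gene means without that array, the mutant excess was 2.79 for Tgfbi, 2.10 for Fst, 1.49 for Adamtsl2, 1.21 for Pmepa1 and 1.01 for Skil. It was 0.68 for Ldlrad4, 0.47 for Htra1, 0.23 for Il1rap and 0.22 for Tgif1, and of the 9 only Tgfbi passed after adjustment (smallest adjusted p of the others 0.114). The unequal variance test named in the study's methods had 0 of 24 at an unadjusted p under 0.05. Groups did not overlap for 2 of the 24, 1427182_s_at of Ldlrad4 and 1452214_at of Skil, where 3.41% of all probe sets did so in this direction.

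In controls, limma again called 0 of the 24 probe sets between IVD and vertebrae, where 0% of all probe sets were called. At an unadjusted p under 0.05, 9 of the 24 were higher in IVD and 0 lower, where 2.45% of all probe sets passed and 1.25% were higher. The 9 were the 4 probe sets of Tgfbi and 1 each of Adamtsl2, Il1rap, Ldlrad4, Pmepa1 and Tgif1. The unequal variance test had 8. Groups did not overlap for 15 of the 24, where 3.54% of all probe sets did so in this direction. All genes just named except Tgif1 are in the study's list of disc enriched genes, made from these arrays. They also gave probe sets to the 15, and the 4 of Tgfbi measure 1 gene. Set against all probe sets, neither count is therefore independent evidence of an excess in controls. Taking control arrays of the same number as 1 mouse, all 9 gene means were higher in IVD in 3 of 3 mice. For 7 of the 9 the control groups did not overlap, so any pairing would give this count. Tgfbi exceeded vertebrae by 2.03, 2.17 and 1.60, Htra1 by 2.09, 1.67 and 2.08, and Adamtsl2 by 0.89, 1.64 and 1.35. When mouse was a random block for the 6 control arrays, 3 of the 24 passed, where 0.0933% of all did: 1415871_at and 1448123_s_at of Tgfbi (adjusted p = 0.0066 and 0.0363) and 1421844_at of Il1rap (adjusted p = 0.0322). When it was a fixed block, 4 passed, where 0.0711% of all did: 1415871_at and 1456250_x_at of Tgfbi and both probe sets of Htra1. As gene means, Tgfbi passed with the random and with the fixed block (adjusted p = 0.0102 and 0.00985), Adamtsl2 with the random block only (adjusted p = 0.0342, and 0.052 with the fixed block) and Htra1 with the fixed block only (adjusted p = 0.00684).

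Between mutant IVD and control IVD, limma called 0 of the 24 probe sets, where 0% of all probe sets were called. Only 1 of the 24 had an unadjusted p under 0.05, where 3.13% of all did, and the unequal variance test had 0. Groups did not overlap for 0 of the 24, where 3.68% of all probe sets lay higher and 0.937% lower in mutant IVD without overlap. Of the 9 gene means, 4 were higher and 5 lower in mutant IVD, with a median difference of -0.07, against 0.04 over all genes. Genes on the study's disc enriched list were chosen in part for high values in these control IVD arrays, which favours lower values in mutants. The differences reached from -0.67 ± 0.86 for Htra1 to 0.59 ± 0.76 for Fst. For Tgfbi the difference was -0.38 (95% interval -1.81 to 1.06), and without mutant IVD 3 it was 0.42. Leaving out that array changed the median over the 9 genes to 0.21, with 7 higher and 2 lower, so whether mutant IVD lay above or below control IVD depended on a single array.

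Between mutant vertebrae and control vertebrae, limma called 0 of the 24, where 0% of all were called. A single probe set, 1452214_at of Skil, had an unadjusted p under 0.05, where 2.61% of all did, and the unequal variance test also had 1. It was lower in mutants by 0.99 ± 0.44 on the log2 scale (adjusted p = 0.998). The difference was -0.64 without mutant vertebrae 1 (unadjusted p = 0.184) and -1.55 without mutant vertebrae 3 (unadjusted p = 0.000963). Without mutant IVD 3, which changes only the error here, 2 probe sets had an unadjusted p under 0.05, where 2.64% of all did, the other being 1415871_at of Tgfbi at -0.96. Groups did not overlap for 1 probe set that lay higher, 1427181_at, and 1 that lay lower, 1427182_s_at, both of Ldlrad4, where 3.63% of all probe sets lay higher and 1.93% lower without overlap. The median over the 9 genes was -0.01, with 4 higher and 5 lower, and Htra1 had the largest difference, 0.98 ± 0.92.

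The change of the excess itself was tested as the interaction of tissue and genotype, the excess in mutants minus the excess in controls. limma called 0 of the 24 probe sets, where 0% of all were called, and 0 had an unadjusted p under 0.05, where 1.37% of all did. The unequal variance test also had 0. Over the 9 genes the median interaction was -0.08, with 3 above 0 and 6 below, against 0.00 over all genes. Tgfbi, Adamtsl2, Il1rap, Ldlrad4 and Pmepa1 were listed by the study as disc enriched from these control arrays. The interaction subtracts their control excess, so this choice favours values below 0. Without mutant IVD 3 the median interaction was 0.19, with 5 above 0 and 4 below. In that fit 1 probe set, 1452214_at of Skil, had an unadjusted p under 0.05, where 1.52% of all did.

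By gene, the interaction was 0.06 for Tgfbi (95% interval -2.04 to 2.17) and -0.08 for Adamtsl2 (95% interval -1.29 to 1.13). Neither gene therefore had a detectable loss of excess in mutants, but both intervals reach a loss about as large as the whole excess in controls. Htra1 had the lowest value, -1.65 (95% interval -4.40 to 1.10), and Fst the highest, 0.59 (95% interval -1.84 to 3.02). The narrowest intervals were those of Il1rap, -0.12 (95% interval -0.54 to 0.30), and Tgif1, -0.21 (95% interval -0.67 to 0.24). Skil 1452214_at had an interaction of 1.24 ± 0.60, the smallest p of the 24 (unadjusted p = 0.0609, adjusted p = 1, limma), and the other probe set of Skil had -0.25. Without mutant IVD 3 the interaction of 1452214_at was 1.45 (95% interval 0.15 to 2.75, unadjusted p = 0.0324, adjusted p = 1), and without mutant vertebrae 1 it was 0.89 (unadjusted p = 0.160).

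**Figure D3:**
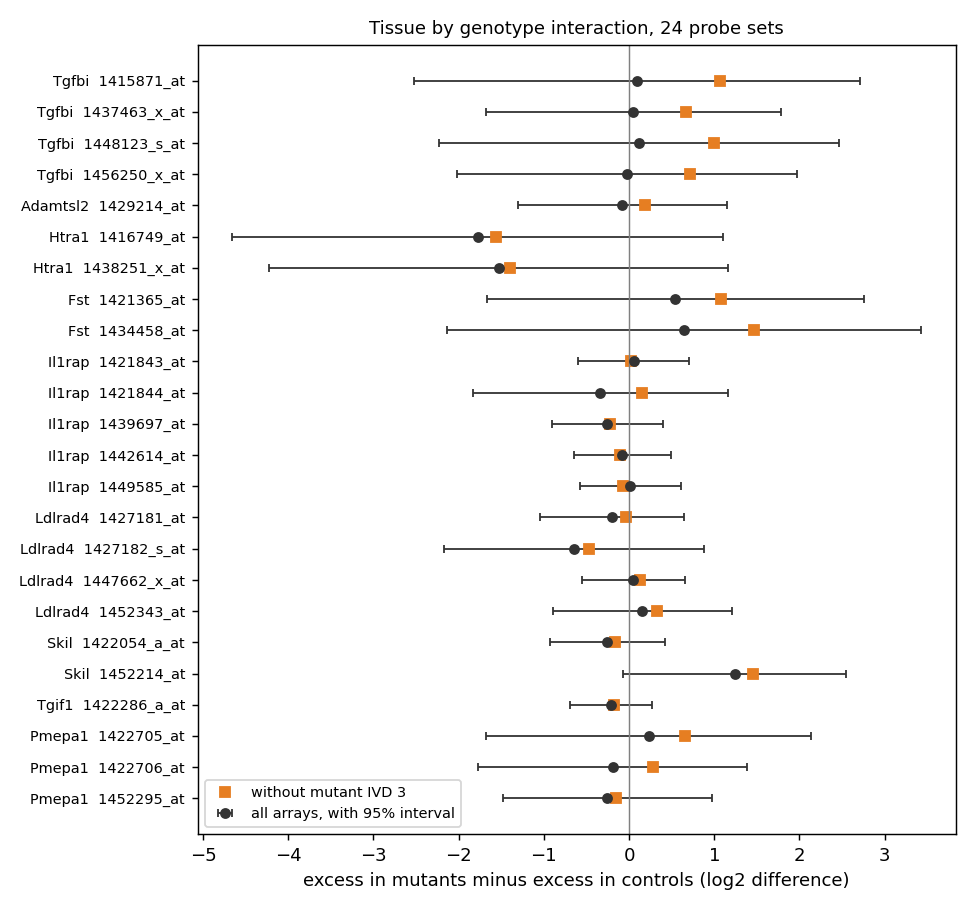
Excess in mutants minus excess in controls (log2) for each of the 24 probe sets, with all arrays (circles, 95% intervals from limma) and without mutant IVD 3 (squares). All 24 intervals include 0, and the 2 probe sets of Htra1 lie lowest, at -1.78 and -1.53.

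The genes varied together across arrays to different degrees. Over the 13 arrays, which share amplification and normalization, Tgfbi correlated with Pmepa1 at r = 0.86, with Ldlrad4 at r = 0.80 and with Adamtsl2 at r = 0.79. Group means were not removed, so all correlations given here include the difference between IVD and vertebrae and are not separate from it. Htra1 was the least like the rest, with r from 0.16 to 0.53. Tgfbi also followed the mean of the fibrous matrix genes (r = 0.91) and ran against that of cartilage matrix genes (r = -0.74), and Pmepa1 followed the fibrous mean at r = 0.87. Among all genes, those most like Tgfbi were Col6a3 (r = 0.96), Creb5, Pamr1, Sulf1 and Dpt. The gene most like Pmepa1 was Loxl1 (r = 0.96), that most like Ldlrad4 was Ooep (r = 0.94), that most like Adamtsl2 was Adamts15 (r = 0.92) and that most like Fst was Il33 (r = 0.92). For Htra1 it was Apbb2 (r = 0.90), for Il1rap Higd1a (r = 0.88), for Skil Pcif1 (r = 0.88) and for Tgif1 Cdyl2 (r = 0.87). Each was picked as the highest r among all genes over only 13 arrays, so a high r came in part from the choice. The highest r to be expected by chance was not computed, so these likenesses are descriptive only.

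**Figure D4:**
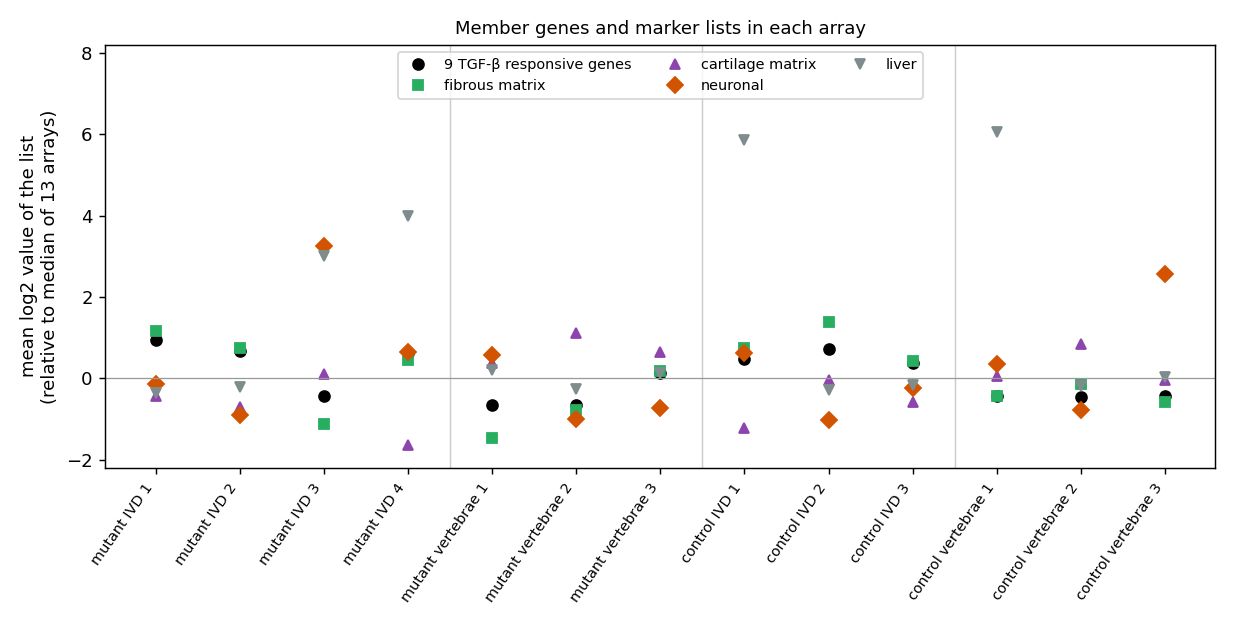
Mean log2 value, relative to the median of the 13 arrays, of the 9 TGF-β responsive genes and of fibrous matrix, cartilage matrix, neuronal and liver genes in each array. In mutant IVD 3 the 9 genes average -0.44 and the fibrous genes -1.13, while neuronal genes average 3.26; in the other 3 mutant IVD arrays the 9 genes average 0.63 to 0.94.

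Averaged over the 9 genes, mutant IVD arrays stood at 0.94, 0.68, -0.44 and 0.63, and mutant vertebrae at -0.65, -0.64 and 0.13. Control IVD arrays stood at 0.48, 0.73 and 0.38, and control vertebrae at -0.43, -0.45 and -0.43. In this average the 3 control vertebrae were nearly the same, and control IVD lay apart from them. Single genes differed more among the control vertebrae, from -2.05 to -0.10 for Htra1 and from -1.23 to 0.59 for Fst. In the average, the mutant arrays of either tissue included 1 array on the other side of 0 from the rest of its group. Cartilage matrix genes (16 measured, among them Col2a1 and Acan) stood at -0.44, -0.69, 0.10 and -1.64 in mutant IVD, and 0.39, 1.12 and 0.64 in mutant vertebrae. They stood at -1.21, -0.05 and -0.57 in control IVD, and 0.06, 0.85 and -0.03 in control vertebrae.

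Other genes of the pathway were read from lists. Those named had the smallest unadjusted p of their list in the interaction or in control IVD against control vertebrae. They therefore do not represent their list. Of 11 ligands and latency proteins measured, limma called 0 in any of the 5 comparisons. Their median excess in IVD was 0.29 in mutants and 0.47 in controls, and 9 and 10 of the 11 were higher in IVD. Inhba, the subunit of activin A, had an excess of 0.51 ± 0.27 in mutants and 1.06 ± 0.29 in controls, and Ltbp4, a latent TGF-β binding protein, had 0.38 ± 0.37 in mutants and 1.34 ± 0.40 in controls. Ltbp2 had 1.63 ± 0.43 in mutants and 1.0 ± 0.46 in controls, and Tgfb1 had 0.22 ± 0.12 in mutants and 0.04 ± 0.13 in controls. The interaction of Ltbp4 was -0.96 ± 0.55 and that of Inhba -0.55 ± 0.40 (unadjusted p = 0.104 and 0.190, adjusted p near 1 for both, limma). Both genes were chosen by these p-values and by those in controls, so the values are no separate evidence. Over all 11 the median interaction was -0.05, with 5 above 0 and 6 below.

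Of 15 receptors and Smads, limma called 0 in any comparison, and the median excess was 0.19 in mutants and 0.20 in controls. Acvr2a, a type II activin receptor, had an excess of 0.62 ± 0.17 in mutants and 0.66 ± 0.18 in controls. Tgfbr1 had 0.24 ± 0.18 in mutants and 0.44 ± 0.19 in controls, and Tgfbr2, as the mean of its probe sets, had 0.54 ± 0.17 in mutants and 0.20 ± 0.18 in controls. Eng, a TGF-β coreceptor of endothelium, had 0.39 ± 0.25 in mutants and -0.23 ± 0.27 in controls. A list of 10 endothelial genes had the same signs, with a median of 0.30 in mutants (10 higher in IVD) and -0.23 in controls (9 lower). Whether the values of Eng reflect endothelial content was not tested. The inhibitor Smad7 had -0.08 ± 0.20 in mutants and 0.16 ± 0.22 in controls, and Acvr1b, a type I activin receptor, had 0.19 ± 0.17 in mutants and -0.03 ± 0.18 in controls.

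Of 23 other TGF-β response genes, limma called 0 in any comparison, with a median excess of 0.26 in mutants and 0.37 in controls, and 15 and 19 of the 23 higher in IVD. The cell cycle inhibitor Cdkn1a had an excess of 0.46 ± 0.26 in mutants and 0.81 ± 0.28 in controls, and the follistatin relative Fstl3 had 0.11 ± 0.33 in mutants and 0.66 ± 0.35 in controls. Bambi, a pseudoreceptor that blocks TGF-β and BMP signals, ran the other way, with -0.85 ± 0.37 in mutants and -1.02 ± 0.40 in controls. Timp1, an inhibitor of metalloproteinases, had -0.31 ± 0.27 in mutants and 0.21 ± 0.29 in controls. For the transcription factors, Junb had -0.01 ± 0.21 in mutants and 0.35 ± 0.22 in controls, and Snai2 had -0.45 ± 0.28 in mutants and 0.04 ± 0.30 in controls. The median interaction over these 23 genes was -0.06, close to that of the 9 genes, with 11 above 0 and 12 below.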

How the data were processed

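Per the study's methods the authors processed the arrays with RMA in GeneSpring, and the deposited log2 values had a median of 0 over the 13 arrays for every probe set, as checked on the values. The 64 control probe sets were dropped. Then limma 3.58.1 in R 4.3.3 (lmFit and eBayes, 4 groups, all 13 arrays, no block, two-sided, Benjamini-Hochberg over all features, called at an adjusted p under 0.05) was fitted to 45037 probe sets, and separately to the means of all probe sets of 18193 genes. Tables and figures were made in Python 3.11.15. Symbols came from GEO's platform annotation and sequences and positions from RefSeq; 932 probe sets had several symbols and 9160 had none. The fits were tested on simulated data. No array was a copy of another. No scan or slide batch is given in the sources used here.

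The same control mice gave IVD and vertebrae, but the sources do not say which numbers go together. After group means were removed, equally numbered control arrays correlated at r = 0.80, 0.57 and 0.57, so a number was taken as a mouse. Arrays of unequal number were not compared, and both control arrays numbered 1 were rich in liver transcripts (means 5.86 and 6.05). These correlations therefore cannot show whether arrays 2 and 3 are paired rightly. All control calls with a block for the mouse rest on this assumed pairing. For equally numbered mutant arrays r was -0.40, 0.24 and -0.15, and these were not paired. Alternatives were quantile normalization, array weights, replicate blocks, a fit of only the groups compared, a trended variance, the unequal variance test of the methods, gene means without probe sets ending in _x_at or _s_at, covariates for neuronal and liver genes, and leaving out arrays.

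The 9 genes, the pathway lists and the tests were chosen with earlier results of these data known. Named pathway genes were, per list, up to 4 with the smallest unadjusted p in the interaction and up to 2 in control IVD against control vertebrae, and Tgfbr2. For each of the 9 genes, the gene with the highest Pearson correlation is named, and 5 for Tgfbi. Listed genes not measured under their symbol were not analysed here. The authors' tables of fold changes were not used for values.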

Additional observations from a re-analysis of the deposited data

Results flagged for a closer look

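Among 33 sets of 4 mutant IVD values (24 probe sets and 9 gene means), 5 held an array far from the other 3, all of them probe sets. Chance alone gives about 1 in 20 such sets, and sets of the same gene share their arrays. Mutant IVD 3 was far below the others for Tgfbi, at -0.89 against 1.47 to 1.76 (1437463_x_at) and at -1.14 against 1.65 to 1.93 (1456250_x_at), and for Fst, at -1.88 against 1.10 to 1.67 (1434458_at). Mutant IVD 1 was far above the others for Ldlrad4, at 1.65 against -0.17 to 0.02 (1427182_s_at), and for Pmepa1, at 1.49 against -0.14 to 0.05 (1452295_at).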

How the results depend on the processing

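The 9 genes kept their excess in control IVD under every alternative, and in mutant IVD under every alternative except for Htra1. The limits are the 3 or 4 arrays per group, values without a level or a background, and mixed tissue; intervals of the excess and of its change are wide. The mutant median excess ran from 0.50 (without mutant IVD 1) to 1.14 when single arrays were left out, and the probe sets called ran from 0 to 4 (4 without mutant IVD 3, all of Tgfbi). Calls in mutants were 1 without the 4 arrays with liver transcripts, which include mutant IVD 3. They were 4 without mutant IVD 3 and mutant vertebrae 1, an alternative chosen after seeing the data. In controls the pairing gave 1 call with a random block for the mouse over all arrays, 3 with a random block in the 6 control arrays and 4 with a fixed block there. A fixed block for the number in the fit of all 13 arrays gave 0 calls in each comparison and a median interaction of -0.16. With the neuronal covariate the median between mutant and control vertebrae was -0.32.

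Some differences that no fit called changed sign, and the cause was not tested. In the mutant excess Htra1 was -0.29 with quantile normalization, -1.36 with array weights, -0.69 without both arrays (mutant IVD 3 and mutant vertebrae 1), and -0.87 to 1.5 with single arrays left out. Between mutant IVD and control IVD, Tgfbi was 0.62 without the liver arrays, 0.069 with the neuronal covariate and 0.42 without both arrays. Pmepa1 was 0.037, 0.099 and 0.21 in the same fits, and Il1rap was 0.0055 without both arrays. Skil was -0.080 with the fixed block and -0.045 with quantile normalization, and Tgif1 was -0.11 with quantile normalization, -0.012 with array weights, -0.0031 with the neuronal covariate and -0.0063 with the liver covariate. With single arrays left out, the ranges were -0.75 to 0.42 for Tgfbi, -0.02 to 0.51 for Adamtsl2, -0.13 to 0.0055 for Il1rap, -0.08 to 0.22 for Skil, -0.057 to 0.057 for Tgif1 and -0.50 to 0.21 for Pmepa1.

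Between mutant and control vertebrae, Fst was 0.14 with quantile normalization, 0.80 with array weights, 0.55 without the liver arrays, 0.29 with the liver covariate and 0.25 without both arrays. Pmepa1 was 0.058 with quantile normalization, 0.19 with array weights and 0.064 without both arrays, where Adamtsl2 was -0.0030. Single arrays left out gave -0.0030 to 0.59 for Adamtsl2, -0.23 to 2.14 for Htra1, -0.49 to 0.55 for Fst and -0.32 to 0.10 for Pmepa1.

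In the interaction, Tgfbi was -0.094 with the fixed block, -0.021 with quantile normalization and -0.24 with array weights. Array weights gave 0.020 for Adamtsl2 and -0.13 for Fst. Without the liver arrays Ldlrad4 was 0.029, Tgif1 0.0019 and Pmepa1 0.098. The neuronal covariate gave 0.079 for Ldlrad4 and 0.42 for Pmepa1, and the liver covariate gave 0.018 and 0.045. Without both arrays Adamtsl2 was 0.51 and Pmepa1 0.15. Single arrays left out gave -0.31 to 0.86 for Tgfbi, -0.36 to 0.24 for Adamtsl2, -0.40 to 0.074 for Ldlrad4 and -0.45 to 0.26 for Pmepa1.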
